A study of Mus musculus with 30 samples.

Results

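Transcripts of 10 genes that encode matrix-degrading enzymes and their inhibitors were followed across mouse oral carcinogenesis: the metalloproteinases Mmp2, Mmp3, Mmp8, Mmp9, Mmp10, Mmp12, Mmp13 and Mmp14, and the tissue inhibitors Timp1 and Timp3. They were taken by symbol from the 55487 gene identifiers of the deposited count table, each matched 1 identifier, and all 10 were among the 17638 genes with enough counts to be tested. RNA was sequenced from 30 tissue samples that the labels sort by pathology: 3 were normal, 8 had hyperplasia, 7 had dysplasia, 6 had carcinoma in situ and 6 had invasive carcinoma. All are labelled as male C57BL/6J mice, as oral squamous cell carcinoma tissue, and with the same protocol: 4NQO (4-nitroquinoline-1-oxide), a carcinogen that damages DNA, at 100 ug/mL in drinking water for 10 weeks, begun at 6 weeks of age. The normal samples carry these labels too, so whether their mice drank the carcinogen is not known. Nothing in the labels says that samples came from separate animals, and p-values therefore measure the spread between samples, which may be partly technical. Sample codes begin with D in normal, A in hyperplasia, B in dysplasia and C in both carcinoma stages. A batch that followed the letter cannot be told apart from stage, except between the carcinoma stages.

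Matrix metalloproteinases are zinc-dependent enzymes that are made as inactive proenzymes and cut collagens, laminins, elastin and other extracellular proteins. TIMP proteins bind their active sites and block them. In squamous epithelium, stromelysins and collagenases are known to be made by keratinocytes at wound edges and in carcinomas, and other members of the family are made by fibroblasts, macrophages and neutrophils.

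Mmp3, Mmp8, Mmp10, Mmp12 and Mmp13 lie together on mouse chromosome 9 of GRCm38, all on the plus strand, between position 7272514 at the start of Mmp13 and position 7568485 at the end of Mmp8. Mmp2 lies on chromosome 8, Mmp9 on 2, Mmp14 on 14, Timp1 on X and Timp3 on 10. RefSeq promoter windows of 300 bases, 250 before and 50 after a start site on GRCm38.p6, were matched for 8 of the 10 genes. The windows below belong to the genes called in the most comparisons, and they show which of those genes hold an AP-1 type letter pattern near the start. Capitals mark TGAGTCA, which on the other strand reads TGACTCA, and TATAAA, which on the other strand reads TTTATA. These patterns do not overlap in any window. In order, the windows lie at chr9:7445572-7445871, chr9:7502092-7502391, chr9:7344147-7344446, chr9:7347124-7347423, chr9:7272264-7272563, chrX:20869916-20870215 and chr10:86300162-86300461, all on the plus strand.
Mmp3: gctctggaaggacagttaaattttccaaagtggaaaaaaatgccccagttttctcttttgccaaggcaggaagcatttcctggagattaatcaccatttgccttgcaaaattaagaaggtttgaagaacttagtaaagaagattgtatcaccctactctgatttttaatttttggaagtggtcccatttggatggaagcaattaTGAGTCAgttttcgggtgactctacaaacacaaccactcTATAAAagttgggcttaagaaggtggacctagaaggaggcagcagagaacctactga
Mmp10: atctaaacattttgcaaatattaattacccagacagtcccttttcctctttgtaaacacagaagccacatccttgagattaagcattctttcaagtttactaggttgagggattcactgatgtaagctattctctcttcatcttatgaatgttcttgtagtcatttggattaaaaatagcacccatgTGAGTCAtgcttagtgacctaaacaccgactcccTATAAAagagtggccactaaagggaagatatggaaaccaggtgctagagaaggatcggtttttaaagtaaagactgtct
Mmp12 first start: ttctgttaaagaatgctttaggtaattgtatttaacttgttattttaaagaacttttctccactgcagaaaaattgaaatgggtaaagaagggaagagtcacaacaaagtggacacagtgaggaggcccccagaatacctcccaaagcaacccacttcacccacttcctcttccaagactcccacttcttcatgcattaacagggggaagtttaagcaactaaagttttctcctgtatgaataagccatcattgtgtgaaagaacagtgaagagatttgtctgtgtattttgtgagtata
Mmp12 second start: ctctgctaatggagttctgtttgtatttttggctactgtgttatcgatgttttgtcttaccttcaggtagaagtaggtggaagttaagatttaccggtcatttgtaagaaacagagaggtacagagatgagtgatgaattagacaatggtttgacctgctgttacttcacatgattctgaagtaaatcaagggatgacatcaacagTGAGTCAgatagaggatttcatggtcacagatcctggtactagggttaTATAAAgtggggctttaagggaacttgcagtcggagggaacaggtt
Mmp13: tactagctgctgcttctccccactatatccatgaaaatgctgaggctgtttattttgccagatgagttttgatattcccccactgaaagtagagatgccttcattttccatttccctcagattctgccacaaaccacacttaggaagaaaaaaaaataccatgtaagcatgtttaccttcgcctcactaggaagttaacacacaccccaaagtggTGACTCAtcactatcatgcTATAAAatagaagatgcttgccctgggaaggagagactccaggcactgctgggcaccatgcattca
Timp1: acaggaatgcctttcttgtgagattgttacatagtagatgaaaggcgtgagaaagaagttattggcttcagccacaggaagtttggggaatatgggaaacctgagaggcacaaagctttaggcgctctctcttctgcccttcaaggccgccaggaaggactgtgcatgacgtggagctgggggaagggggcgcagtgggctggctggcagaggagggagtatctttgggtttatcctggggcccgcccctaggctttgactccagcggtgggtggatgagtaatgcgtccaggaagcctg
Timp3: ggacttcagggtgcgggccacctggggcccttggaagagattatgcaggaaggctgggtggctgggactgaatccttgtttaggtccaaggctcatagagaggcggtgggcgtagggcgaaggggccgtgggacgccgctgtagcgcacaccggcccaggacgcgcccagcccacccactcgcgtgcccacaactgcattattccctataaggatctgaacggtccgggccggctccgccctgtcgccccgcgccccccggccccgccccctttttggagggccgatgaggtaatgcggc
TGAGTCA or its reverse began at position -46 in Mmp3, -63 in Mmp10, -44 at the second start of Mmp12 and -35 in Mmp13, counted from the start site. Each of these 4 windows also held TATAAA. Of all 32851 promoter windows of this length, 5.2% held TGAGTCA on either strand, 13.6% held TATAAA and 0.941% held both. Neither pattern was found in the windows of the first start of Mmp12, Mmp14, Timp1 or Timp3, and Mmp8 held TTTATA alone. A match describes letters in a window and is no evidence of a bound factor.

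Library totals ran from 17725604 to 28023098 counts. The samples were mixed tissue: summed basal keratinocyte markers, led by Krt5 and Krt14, ran from 5228 to 25771 CPM (counts scaled by library total and TMM factor), and summed skeletal muscle markers from 19560 to 86993 CPM. In bulk samples, fewer cells of a type and less RNA per cell cannot be told apart. A trio of samples stood apart. Normal sample D01, dysplasia sample B01 and invasive sample C12 had bone and cartilage marker scores of 2.43, 2.44 and 2.28 (mean log2 CPM of the list), while no other sample was above 1.44. By summed CPM of the same list they did not stand apart, at 66.5, 70.8 and 76.8 CPM, while C07 had 86.9 CPM. Of 7 tested genes of that list, 1 rose and 1 fell in invasive carcinoma against normal, beside 23.4% and 22.7% of all genes. The trio also held transcripts of the myeloid granule genes Ngp and Mpo, which were picked out after their values were seen. Ngp reached 1.57 CPM in D01, 12.1 CPM in B01 and 27.98 CPM in C12, and its highest value in any other sample was 0.524 CPM. Results that rest on these samples are given below with and without them.

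Per kilobase of exon, the order of the genes differed between normal tissue and invasive carcinoma. In normal tissue Mmp2 and Timp3 led with mean levels of 20.9 and 20.6 CPM per kb. Mmp14 followed at 9.19, Mmp3 at 2.50, Mmp9 at 1.17, Timp1 at 0.746, Mmp13 at 0.389, Mmp8 at 0.0747, Mmp12 at 0.0640 and Mmp10 at 0.0428 CPM per kb. In invasive carcinoma Mmp2 was at 20.5, Mmp3 at 20.2, Mmp14 at 11.2, Mmp13 at 10.3, Timp3 at 9.33, Timp1 at 6.30, Mmp10 at 4.73, Mmp9 at 3.31, Mmp12 at 1.0 and Mmp8 at 0.486 CPM per kb. Neighbours such as Mmp2 and Mmp3 in invasive carcinoma were closer than their spread between samples. Mmp3 in invasive tissue was at 8.09 times its own normal mean.

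**Figure D1:**
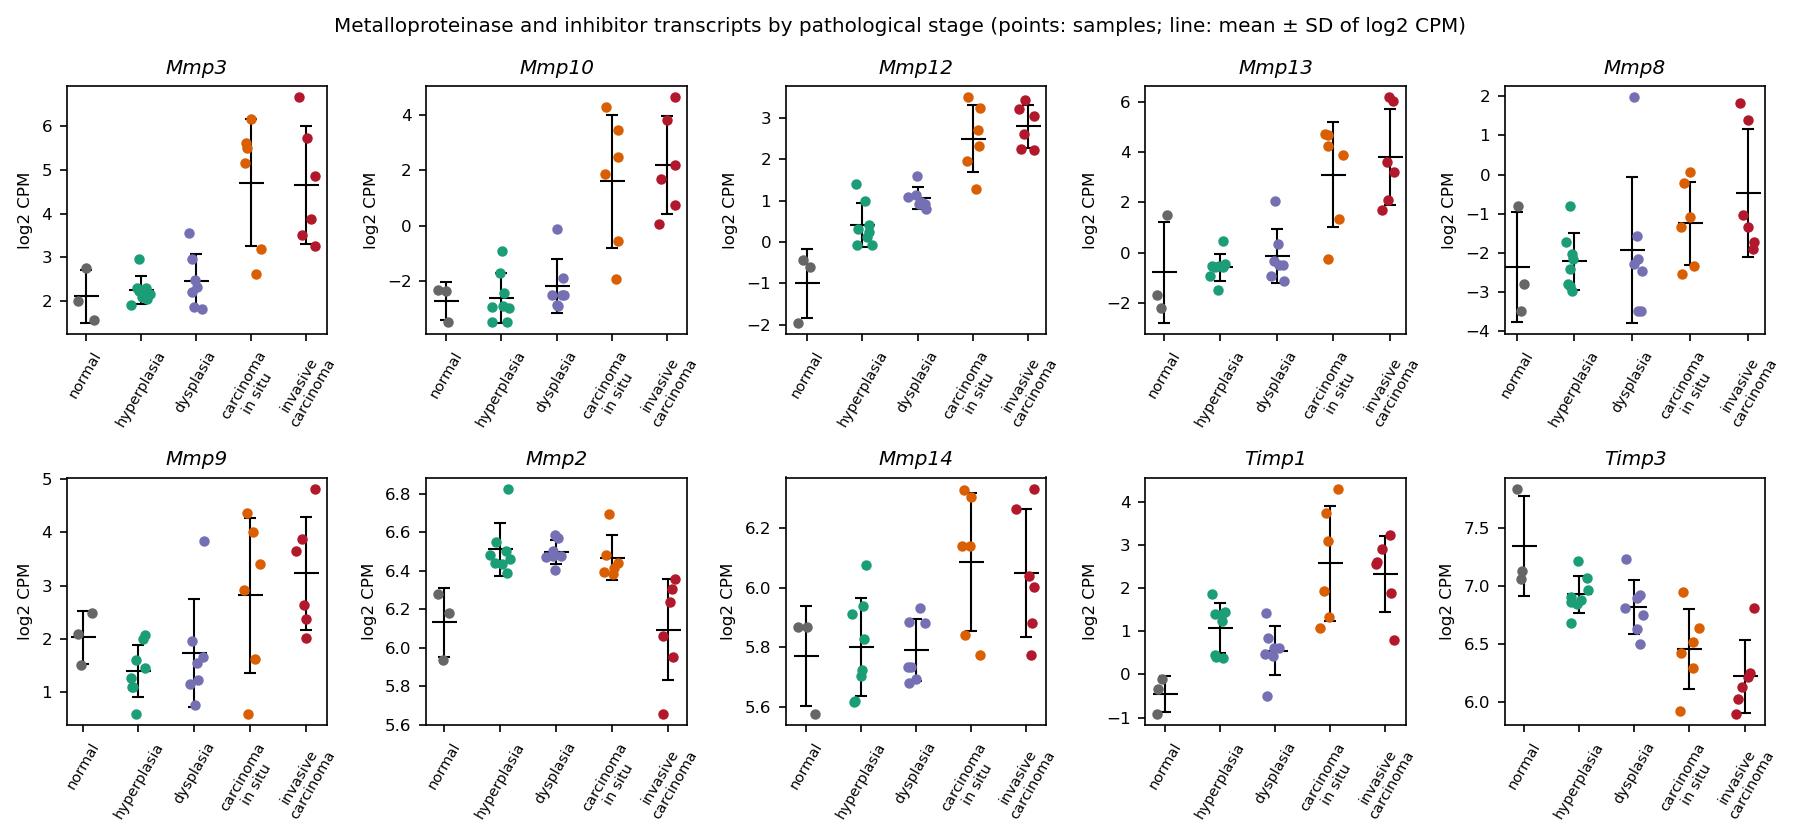
Level of each gene (y axis, log2 CPM) in each sample by pathological stage (x axis), with the mean and SD of log2 CPM per stage as black lines. Most carcinoma samples lie above the earlier stages in Mmp3, Mmp10 and Mmp13, and each stage mean of Mmp12 is above, and of Timp3 below, that of the stage before.

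Stromelysins 1 and 2, encoded by Mmp3 and Mmp10, cut many non-collagen matrix proteins and activate other proenzymes. Mmp3 was at 2.87, 3.95 and 6.66 CPM in the normal samples. Its lowest, median and highest values were 3.67, 4.50 and 7.77 CPM in hyperplasia, and 3.48, 4.89 and 11.7 CPM in dysplasia. In carcinoma in situ these values were 6.07, 40.4 and 71.4 CPM, and in invasive carcinoma 9.50, 21.8 and 101 CPM. All 6 invasive samples lay above every normal and every hyperplasia sample, while 5 of 6 carcinoma in situ samples lay above every normal one. The log2 fold change against normal was 3.0 ± 0.77 (SE) in carcinoma in situ (adjusted p = 0.00385) and 3.02 ± 0.77 in invasive carcinoma (adjusted p = 0.00256). These and all later adjusted p-values come from edgeR's quasi-likelihood test with Benjamini-Hochberg adjustment over all tested genes, unless another tool is named. Against dysplasia, carcinoma in situ was higher by 2.61 ± 0.53 (adjusted p = 0.0105). Adding the mean log2 CPM of skeletal muscle markers as a covariate gave Mmp3 differences from normal of 2.4 (adjusted p = 0.0522) in carcinoma in situ and 2.31 (adjusted p = 0.0865) in invasive carcinoma. Sample C09 carried the highest invasive value, and without it the invasive difference was 2.38 from normal and 2.31 from hyperplasia, both still called.

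Mmp10 was close to undetected before carcinoma. It had 4 counts in all 3 normal samples together, with 0 counts in D03, where 3 counts would be 0.132 CPM. Lowest, median and highest values were 0, 0.0441 and 0.447 CPM in hyperplasia, and 0.0464, 0.0889 and 0.829 CPM in dysplasia. They were 0.175, 4.52 and 19.2 CPM in carcinoma in situ and 0.954, 3.81 and 24.6 CPM in invasive carcinoma. Every carcinoma sample lay above every normal one, and the invasive samples did not overlap hyperplasia either. The log2 fold change from normal was 6.49 ± 1.64 in carcinoma in situ (adjusted p = 0.0035) and 6.78 ± 1.64 in invasive carcinoma (adjusted p = 0.00164). Pooled counts gave log2 ratios of 6.62 (95% interval 5.26 to 8.50) and 6.92 (5.56 to 8.80), intervals that cover counting error only. Carcinoma in situ also exceeded dysplasia, by 4.98 ± 0.95 (adjusted p = 0.00833). The muscle score as a covariate ended both calls against normal, at 4.17 (adjusted p = 0.105) and 3.73 (adjusted p = 0.202), as did limma-voom with sample weights for carcinoma in situ, at 6.02 (adjusted p = 0.0662). Single samples moved the size over 1.5-fold with the call kept: against normal, carcinoma in situ was 5.85 higher without D03 and 5.81 without C10, and invasive carcinoma was 6.16 without D03 and 6.05 without C09. Carcinoma in situ was 6.11 above dysplasia without B06 and 4.30 without C10. Invasive carcinoma was 6.27 ± 1.0 above hyperplasia (adjusted p = 6.3e-05), with 7.0 without A05, 5.55 without C09, 5.54 in limma-voom and 4.02 with the muscle covariate, all called.

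Mmp12, the elastase of macrophages, was called in more comparisons than any other of the 10 genes, 6 of 8. Normal samples had 0.169, 0.571 and 0.650 CPM. The lowest, median and highest values were 0.854, 1.12 and 2.55 CPM in hyperplasia and 1.65, 1.85 and 2.92 CPM in dysplasia. They were 2.36, 5.68 and 11.2 CPM in carcinoma in situ and 4.55, 7.13 and 10.7 CPM in invasive carcinoma. No sample of any later stage fell within the normal range, and no invasive sample fell within the hyperplasia range. By stage, 14.6% to 32.4% of all tested genes did not overlap normal, and 7.86% did not overlap between invasive carcinoma and hyperplasia. The log2 fold change from normal was 1.48 ± 0.48 in hyperplasia (adjusted p = 0.0363), 2.09 ± 0.48 in dysplasia (adjusted p = 0.00312), 3.74 ± 0.50 in carcinoma in situ (adjusted p = 1.1e-05) and 3.93 ± 0.50 in invasive carcinoma (adjusted p = 3.2e-06). These 4 comparisons share the normal samples. Carcinoma in situ exceeded dysplasia by 1.65 ± 0.30 (adjusted p = 0.00833), and invasive carcinoma exceeded hyperplasia by 2.45 ± 0.30 (adjusted p = 2.7e-06). The hyperplasia call was lost without D02 (1.09, adjusted p = 0.251), D03 (1.65, 0.0757), A05 (1.39, 0.0556) or A08 (1.27, 0.0626), and with limma-voom (1.35, 0.0936) or no expression filter (1.46, 0.0676). Of 13 tested macrophage markers, 5 rose and 1 fell in invasive carcinoma against normal, beside 23.4% and 22.7% of all genes. Arg1 (1.65 ± 0.31) was among those that rose. Summed macrophage markers were at 678 to 1305 CPM in invasive carcinoma and 373 to 582 CPM in normal tissue. Marco did not pass the expression filter, and the part of these cells in the Mmp12 result was not tested. Exons of Mmp12 share 157 bases with Mmp1b on the other strand, but Mmp1b had 70 counts in all 30 samples together.

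Collagenases cut the triple helix of fibrillar collagens. Mmp13, collagenase 3, was at 2.76 CPM in D01 and at 0.225 and 0.132 CPM in the other normal samples. In that order of lowest, median and highest, Mmp13 had 0.270, 0.594 and 1.29 CPM in hyperplasia, and 0.371, 0.625 and 4.10 CPM in dysplasia, where B01 was the highest. They were 0.743, 16.8 and 26.4 CPM in carcinoma in situ, and 3.13, 10.7 and 72.4 CPM in invasive carcinoma, where C12 was the highest and C09 next at 64.7 CPM. All 6 invasive samples and 4 of 6 carcinoma in situ samples lay above every normal one. The log2 fold change from normal was 3.86 ± 1.22 in carcinoma in situ (adjusted p = 0.0153) and 4.76 ± 1.26 in invasive carcinoma (adjusted p = 0.00358). Carcinoma in situ exceeded dysplasia by 3.67 ± 0.83 (adjusted p = 0.0168), and invasive carcinoma exceeded hyperplasia by 5.46 ± 0.86 (adjusted p = 6.2e-05). Without D01 the differences from normal were 6.39 (adjusted p = 0.00913) and 7.30 (adjusted p = 0.0029). With D01, B01 and C12 all left out they were 6.37 and 6.71, and carcinoma in situ exceeded dysplasia by 4.46 (adjusted p = 0.0037). Leaving out B01 alone gave 4.47. The carcinoma in situ call against normal was lost without D02 (3.41, adjusted p = 0.0801) or D03 (3.30, 0.0748), and the call against dysplasia without C07 (3.43, 0.0506). A fit of only the compared groups gave adjusted p of 0.0827 for carcinoma in situ and 0.0619 for invasive carcinoma against normal and 0.0542 for carcinoma in situ against dysplasia, and the muscle covariate gave 2.86 (adjusted p = 0.13) and 3.25 (adjusted p = 0.135) against normal. Limma-voom kept these calls at 5.08 and 5.38, and both it and the muscle covariate kept that of invasive carcinoma against hyperplasia, at 4.14 and 4.21.

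**Figure D2:**
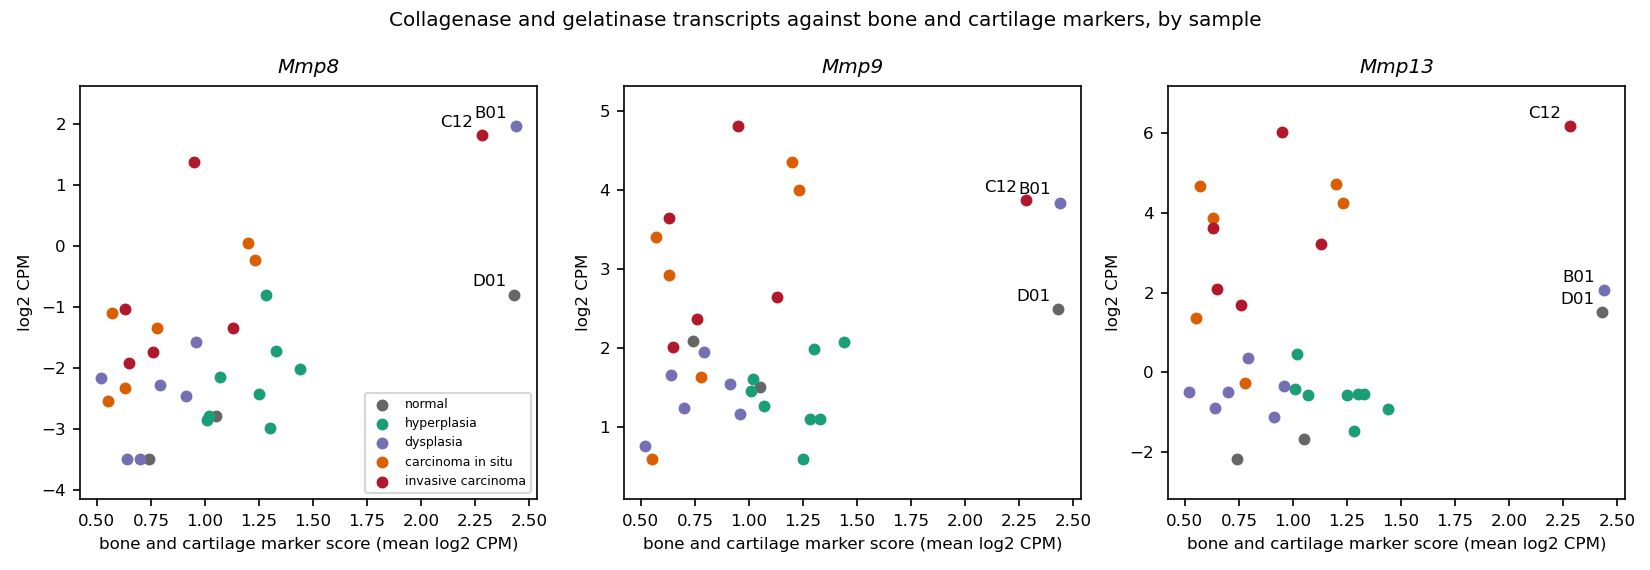
Level of Mmp8, Mmp9 and Mmp13 (y axes, log2 CPM) against the bone and cartilage marker score (x axes, mean log2 CPM of the list) in 30 samples coloured by stage. D01, B01 and C12 lie to the right of all other samples, and C09, to their left, holds the highest Mmp9 (28.1 CPM) and an Mmp13 level (64.7 CPM) near that of C12.

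Mmp8, the collagenase of neutrophil granules, stayed near the limit of detection. Its counts summed to 10 over the normal samples, 26 over hyperplasia, 101 over dysplasia, 63 over carcinoma in situ and 159 over invasive carcinoma. Of these B01 held 88, C12 73 and C09 61, and D03, B03 and B07 had 0. The lowest, median and highest values were 0.178, 0.354 and 3.45 CPM in invasive carcinoma and 0.0374, 0.117 and 0.486 CPM in hyperplasia. They were 0, 0.118 and 3.84 CPM in dysplasia, where B01 was the highest of all samples, and 0.0834, 0.343 and 0.955 CPM in carcinoma in situ. C12 at 3.45 CPM and C09 at 2.52 CPM were the only invasive samples above every hyperplasia sample. Invasive carcinoma exceeded hyperplasia by 2.91 ± 0.99 on the log2 scale (adjusted p = 0.0224), and Mmp8 was called in no other comparison. That call was lost without C12 (2.23, adjusted p = 0.099) or C09 (2.57, 0.0626), with limma-voom (1.60, 0.0736), with no expression filter (2.91, 0.0528) and with the muscle covariate (2.85, 0.189), and it was kept at 2.24 (adjusted p = 0.0154) with D01, B01 and C12 all left out, when the difference of invasive carcinoma from normal, 4.59 (adjusted p = 0.0245), was called too, as it was in limma-voom (3.29, 0.0401).

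Mmp9, gelatinase B, cuts denatured and basement membrane collagens and is stored by neutrophils. Lowest, median and highest values of Mmp9 were 3.95, 9.31 and 28.1 CPM in invasive carcinoma and 1.42, 2.49 and 4.11 CPM in hyperplasia. Normal samples had 2.76, 4.17 and 5.52 CPM. Dysplasia ran from 1.61 CPM through a median of 2.83 CPM to 14.3 CPM in B01, and carcinoma in situ from 1.42 CPM through 9.02 CPM to 20.4 CPM. Of the invasive samples, 5 of 6 exceeded every hyperplasia sample, and 4 of 6 exceeded every normal one. Invasive carcinoma was higher than hyperplasia by 2.12 ± 0.53 (adjusted p = 0.00325), the only call for this gene. Its difference from normal was 1.49 ± 0.74 (adjusted p = 0.0979). With the muscle covariate the difference from hyperplasia was 1.98 (adjusted p = 0.0712), and without B01 carcinoma in situ exceeded dysplasia by 1.90 (adjusted p = 0.0254), against 1.19 ± 0.54 (adjusted p = 0.178) with it. Of 12 tested neutrophil markers, 11 rose and none fell in invasive carcinoma against hyperplasia, beside 19.1% and 19.2% of all genes. Clec4d (3.58 ± 0.72) and Csf3r (3.04 ± 0.62) were among those with the smallest adjusted p. The median log2 fold change of the 12 markers was 3.68. Their summed level was 1344 to 7112 CPM in invasive carcinoma and 28.8 to 1384 CPM in hyperplasia, most of it S100a8 and S100a9, which keratinocytes also express. Ly6g, Camp and Elane did not pass the expression filter, Ly6g had a median of 0 CPM in both stages, and the part of these cells in the Mmp8 and Mmp9 results was not tested.

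Gelatinase A and its activator were abundant at every stage and moved little. Mmp2 had 61.1, 72.5 and 77.5 CPM in normal samples. Its lowest, median and highest levels were 83.7, 88.8 and 113 CPM in hyperplasia and 84.5, 89.0 and 96.0 CPM in dysplasia. They were 83.3, 86.0 and 104 CPM in carcinoma in situ and 50.3, 71.0 and 81.8 CPM in invasive carcinoma. Of all tested genes, 14.6%, 20.6% and 26.6% did not overlap normal in the 3 stages between normal and invasive carcinoma. For Mmp2 each sample of those stages lay above every normal one. The log2 differences from normal were 0.38 ± 0.11 (adjusted p = 0.0189) in hyperplasia, 0.36 ± 0.11 (adjusted p = 0.0172) in dysplasia, 0.33 ± 0.11 (adjusted p = 0.02) in carcinoma in situ and -0.03 ± 0.11 (adjusted p = 0.869) in invasive carcinoma. All 6 invasive samples lay below every hyperplasia sample, at -0.40 ± 0.08 (adjusted p = 6.9e-04). They also lay below every carcinoma in situ sample, at -0.36 ± 0.09, which did not pass adjustment (adjusted p = 0.434). Without D02 the calls against normal were lost, at 0.27 (adjusted p = 0.202) in hyperplasia, 0.26 (0.159) in dysplasia and 0.25 (0.14) in carcinoma in situ, and the last was also lost with no expression filter (0.30, 0.0568). Mmp2 is known as a fibroblast product. Of 12 fibroblast markers 1 rose and 7 fell in invasive carcinoma against hyperplasia, beside 19.1% and 19.2% of all genes. Pdgfra (-0.89 ± 0.14) and Dcn (-0.72 ± 0.13) were among those that fell. Summed fibroblast markers were at 883 to 1474 CPM in invasive carcinoma and 1445 to 2290 CPM in hyperplasia. Their part in the Mmp2 result was not tested.

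Mmp14 encodes the membrane-bound enzyme that activates proMMP2. It had 47.6, 58.3 and 58.4 CPM in normal samples. Samples with hyperplasia ran from 49.0 CPM through a median of 54.8 CPM to 67.4 CPM, and those with dysplasia from 51.2 CPM through 53.1 CPM to 61.0 CPM. Carcinoma in situ ran from 54.6 CPM through 70.5 CPM to 80.2 CPM, and invasive carcinoma from 54.6 CPM through 64.9 CPM to 80.5 CPM. Carcinoma in situ exceeded normal by 0.33 ± 0.13 (adjusted p = 0.0404) and invasive carcinoma exceeded hyperplasia by 0.25 ± 0.09 (adjusted p = 0.0349), with overlap in both. The first of these calls was lost without any 1 of D01, D02, D03, C01, C02, C07 or C10 (0.24 to 0.39, adjusted p 0.0509 to 0.239), and the second without any 1 of A02, A05, A07, A08, C09 or C12 (0.21 to 0.24, adjusted p 0.0547 to 0.102). DESeq2 and other settings also lost the first, at adjusted p of 0.0507 to 0.243, and upper-quartile factors among others the second, at 0.0582 to 0.429. Carcinoma in situ against dysplasia (0.31 ± 0.10, adjusted p = 0.0548) was called without C04 (0.37, 0.0204) or C11 (0.37, 0.0374) and in DESeq2 (0.31, 0.0424), and invasive carcinoma against normal (0.29 ± 0.12, adjusted p = 0.0616) without C05 (0.34, 0.0258) or C08 (0.32, 0.0462).

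The inhibitors moved in opposite directions. Timp1, an inducible inhibitor of most metalloproteinases, was at 0.439, 0.704 and 0.844 CPM in normal samples. Timp1 then ran, as lowest, median and highest, at 1.21, 2.39 and 3.52 CPM in hyperplasia, 0.623, 1.43 and 2.58 CPM in dysplasia, 2.0, 6.05 and 19.6 CPM in carcinoma in situ, and 1.64, 5.88 and 9.22 CPM in invasive carcinoma. Every hyperplasia and carcinoma sample was above every normal one, and 6 of 7 dysplasia samples were. The log2 fold change from normal was 3.64 ± 0.70 in carcinoma in situ (adjusted p = 4.1e-04) and 3.08 ± 0.69 in invasive carcinoma (adjusted p = 7.8e-04). Carcinoma in situ exceeded dysplasia by 2.47 ± 0.45 (adjusted p = 0.00833), and invasive carcinoma exceeded hyperplasia by 1.38 ± 0.42 (adjusted p = 0.012). In hyperplasia the difference from normal was 1.70 ± 0.66 (adjusted p = 0.08), although the groups did not overlap; DESeq2 called it (1.69, adjusted p = 0.0209), as did a fit of only those groups (1.70, 0.0091). The call of invasive carcinoma against hyperplasia was lost with limma-voom (1.01, adjusted p = 0.0802) and with the muscle covariate (1.0, 0.265). Timp1 lies within Syn1 on the other strand and shares no exon bases with it.

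Timp3, the matrix-bound inhibitor, was at 134, 140 and 229 CPM in normal samples, with D01 the highest. Hyperplasia samples ran from 103 CPM through a median of 119 CPM to 148 CPM, and dysplasia samples from 90.1 CPM through 112 CPM to 150 CPM. Carcinoma in situ ran from 60.4 CPM through 88.5 CPM to 123 CPM, and invasive carcinoma from 59.3 CPM through 71.8 CPM to 112 CPM. All 12 carcinoma samples lay below every normal sample. The log2 fold change from normal was -0.56 ± 0.18 in dysplasia (adjusted p = 0.0266), -0.90 ± 0.19 in carcinoma in situ (adjusted p = 7.2e-04) and -1.14 ± 0.19 in invasive carcinoma (adjusted p = 4.4e-05). Against hyperplasia, invasive carcinoma was at -0.69 ± 0.15 (adjusted p = 9.3e-04). The dysplasia call was lost without D01 (-0.26, adjusted p = 0.335), without D01, B01 and C12 (-0.33, 0.183) and with the muscle covariate (-0.31, 0.405), which also lost the call of invasive carcinoma against hyperplasia (-0.44, 0.081). In hyperplasia, -0.45 ± 0.18 against normal (adjusted p = 0.0867) became a call without D03 (-0.61, 0.0448), and carcinoma in situ against dysplasia, -0.35 ± 0.15 (adjusted p = 0.162), became one without C04 (-0.45, 0.0429). Endothelial markers moved the same way: all 8 fell in invasive carcinoma against normal, beside 22.7% of all genes. Their summed level was 176 to 283 CPM in invasive carcinoma and 368 to 427 CPM in normal tissue. Their part in the Timp3 result was not tested. Exons of Timp3 share 1733 bases with Syn3 on the other strand, which had 132 counts in all samples.

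**Figure D3:**
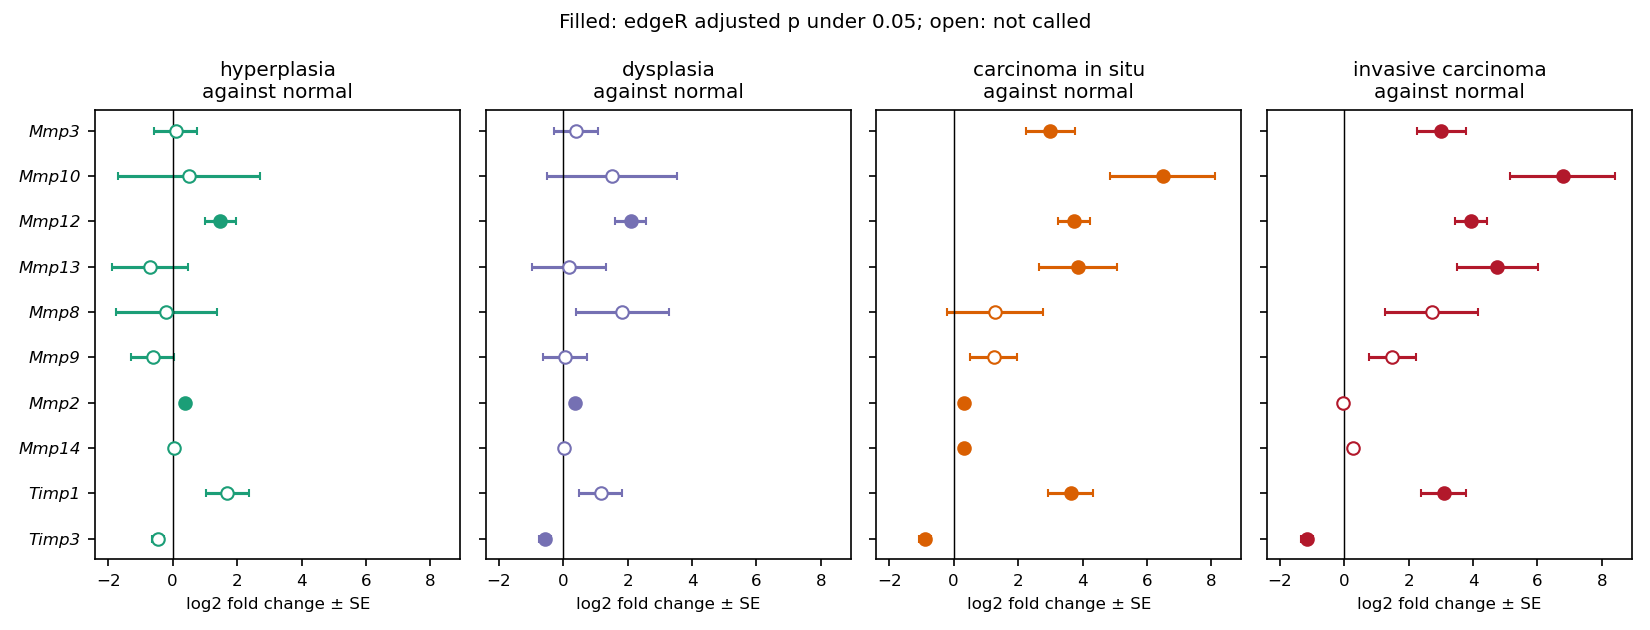
Log2 fold change (x axis, ± SE) of each gene (y axis) in each of 4 stages against the same 3 normal samples. Filled points passed an adjusted p of 0.05 in edgeR: 2 for hyperplasia, 3 for dysplasia, 8 at carcinoma in situ and 6 at invasive carcinoma.

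Counted together, 2 of the 10 genes rose and none fell in hyperplasia against normal, where 8.22% of all tested genes were called higher and 6.07% lower. In dysplasia 2 rose and 1 fell, beside 13.3% and 12.4% of all genes. In carcinoma in situ 7 rose and 1 fell, beside 19.4% and 18.1% (37.6% in either direction), and in invasive carcinoma 5 rose and 1 fell, beside 23.4% and 22.7% (46.1% in either direction). The median log2 fold change of the 10 genes was 0.06, 0.38, 2.15 and 2.87 in these 4 comparisons, and that of all genes lay between 0.0119 and 0.0224. All 4 use the same normal samples, so they are not independent. Without D02 the count in hyperplasia was 0, beside 5.14% of all genes in place of 14.3%, and the count in carcinoma in situ was 5, beside 23.5% in place of 37.6%. Hyperplasia had 1 without A05 (12.9% of all genes) and 1 without A08 (13.7%).

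In carcinoma in situ against dysplasia, Mmp3, Mmp10, Mmp12, Mmp13 and Timp1 rose and none of the 10 fell, beside 2.99% of all genes called higher and 2.47% lower (5.47% in either direction). The median log2 fold change of the 10 genes was 1.42, and that of all genes -0.0024. With upper-quartile factors the split of all calls in that comparison was 729 higher and 347 lower, in place of 528 and 436. Dysplasia against hyperplasia called 0 of the 10 genes in edgeR, beside 5.18% of all genes (2.99% higher and 2.19% lower). At an unadjusted p under 0.05 it had 1, Mmp12 at 0.61 ± 0.30, beside 21.0% of all genes. DESeq2 called 0, beside 4.01% of 34108 genes, as it was run without the expression filter. Its 1369 calls among all genes were more than the 914 of edgeR. Limma-voom called 0, beside 20.4% of 17638 genes. Upper-quartile factors gave 322 higher and 465 lower calls among all genes there, in place of 527 and 387 with TMM factors.

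Invasive carcinoma against carcinoma in situ called 0 of the 10 genes and 0.00% of all genes in edgeR. At an unadjusted p under 0.05, 1259 of 17638 genes passed, Mmp2 the only one of the 10. DESeq2 and limma-voom also called 0 of the 10 genes and 0.00% of all genes. Mmp13 averaged 27.6 ± 31.9 CPM in invasive carcinoma and 14.8 ± 11.1 CPM in carcinoma in situ (SD, n = 6 each), a log2 difference of 0.90 ± 0.75. Invasive carcinoma against hyperplasia called all 10 genes, 8 higher and 2 lower, beside 19.1% and 19.2% of all genes (38.4% in either direction), and Mmp2 and Timp3 were the lower ones. Groups did not overlap in 5 of the 10 (Mmp2, Mmp3, Mmp10, Mmp12 and Mmp13), beside 7.86% of all tested genes.

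Carcinoma samples differed widely among themselves, and the same samples tended to be low or high. C04 and C11 in carcinoma in situ and C05 and C08 in invasive carcinoma held the lowest Mmp10 and Mmp13 values of their stage. Mmp10 was at 0.175 and 0.584 CPM in C04 and C11, and at 0.954 and 1.60 CPM in C05 and C08. Mmp13 was at 0.743 and 2.46 CPM in C04 and C11, and at 3.13 and 4.19 CPM in C05 and C08. At the other end, C09 held 101 CPM of Mmp3, 24.6 CPM of Mmp10, 64.7 CPM of Mmp13 and 28.1 CPM of Mmp9. C12 had the highest Mmp13 and Mmp8 but the lowest Mmp3 of invasive carcinoma, at 9.50 CPM.

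Tissue markers also differed among the carcinomas, but not alike in the 4 low samples. C04 had the highest summed skeletal muscle, salivary gland, endothelial and fibroblast marker levels of carcinoma in situ, and C05 had the highest of all 4 in invasive carcinoma. C11 and C08 instead had the lowest fibroblast sums of their stages, 1170 CPM and 883 CPM. Muscle markers summed to 54483 CPM in C04 and 46855 CPM in C05. Their range was 19560 to 46855 in invasive carcinoma, 31226 to 54483 in carcinoma in situ and 63854 to 86993 CPM in normal tissue. Against normal, 16 of 18 fell in invasive carcinoma, beside 22.7% of all genes, and 13 of 18 in carcinoma in situ, beside 18.1%. Under the muscle covariate, 4 of the 10 genes were called for carcinoma in situ against normal, beside 16.5% of all genes in place of 37.6%. For invasive carcinoma against normal 3 were called, beside 12.3% in place of 46.1%. Against hyperplasia, invasive carcinoma had 5, beside 9.13% in place of 38.4%. Mmp12 stayed called in all of them. Salivary markers summed to 7369 CPM in C04 and 6898 CPM in C05, though C11 at 15.9 CPM and C08 at 49.7 CPM were near the bottom. With the salivary score as a covariate each call of the 10 genes was kept.

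**Figure D4:**
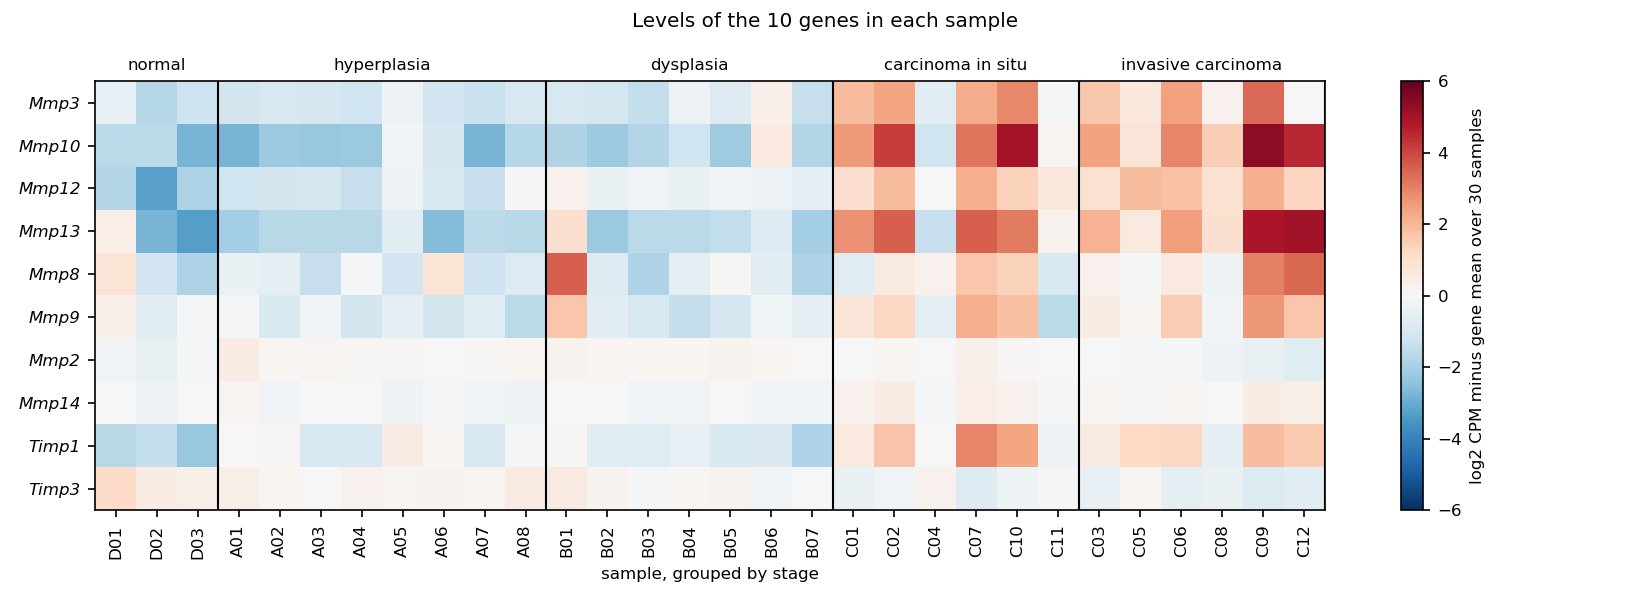
Level of each gene (rows) in each of 30 samples (columns, grouped by stage), as log2 CPM minus the gene's mean over all samples. C09, C10 and C02 are red in most metalloproteinase rows, C04 and C11 are pale or blue, and B01 stands out in dysplasia for Mmp8, Mmp9 and Mmp13.

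Once stage means were removed, several of the genes varied together. These correlations are descriptions: each point is a library, so both genes share its depth and tissue make-up. Over 30 samples Mmp13 and Mmp9 had a Pearson r of 0.79 (Spearman rho 0.78), Mmp13 and Mmp10 0.78 (0.70), and Mmp10 and Mmp3 0.76 (0.69). Without the 2 samples farthest from the median of the first gene named, these were 0.79, 0.70 and 0.66. Among the 12 carcinoma samples r was 0.95 (rho 0.89) for Mmp10 and Mmp13, 0.95 (0.92) for Mmp13 and Mmp14, and 0.90 (0.94) for Mmp9 and Timp1. Without the 2 samples farthest from the median of the first gene of each pair, these carcinoma values were 0.97, 0.96 and 0.86. Among the 15 hyperplasia and dysplasia samples the same pairs had r of 0.25, -0.10 and 0.27. There r was 0.71 for Mmp13 and Mmp9 and 0.78 for Mmp10 and Mmp3. Timp3 ran opposite to Mmp13 in carcinomas, with r of -0.81 (rho -0.84), and -0.66 without the 2 samples farthest in Mmp13. For this pair r was 0.32 in the hyperplasia and dysplasia samples and -0.28 over all 30 samples. Mmp2 had r between -0.29 and 0.27 with the others over all samples and between -0.48 and 0.28 in the carcinomas.

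**Figure D5:**
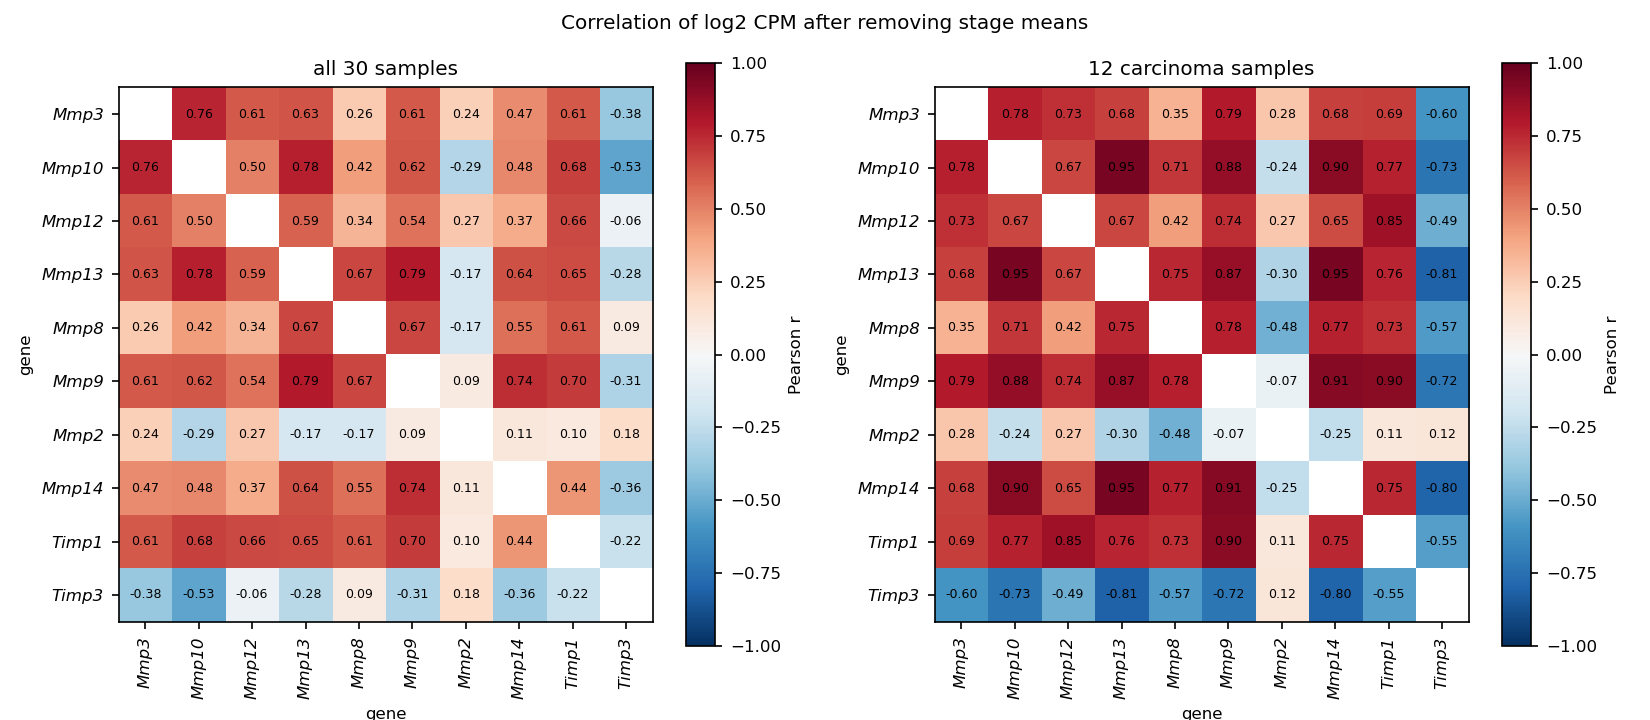
Pearson correlation of log2 CPM between each pair of the 10 genes (rows and columns) after stage means were removed, in all 30 samples on the left and the 12 carcinoma samples on the right. Most metalloproteinases and Timp1 form a red block in the carcinomas, Timp3 is blue against it, as at r = -0.81 with Mmp13, and Mmp2 is paler.

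Beyond the 10 genes, the 3 closest patterns among 13241 protein-coding genes were found for each gene with a mean of at least 1 CPM, again within stages over 30 samples. Odc1, an enzyme of polyamine synthesis, was among the genes closest to Mmp10 (r = 0.85). Mmp13 was closest to Fads3 (0.85), Serinc2 (0.84) and Odc1 (0.84). Mmp3 was closest to Selp (0.84), a vascular adhesion receptor, Dio2 (0.78) and Mmp10 (0.76). Mmp9 and Mmp14 shared Ctsk, the collagen-cutting cathepsin of osteoclasts, at 0.85 and 0.76. The other genes closest to Mmp9 were Csf3r (0.84), a neutrophil receptor, and B3glct (0.83), and to Mmp14 they were Ppp1r18 (0.81) and Pi15 (0.75). Mmp12 was closest to Dennd4a (0.79) and to the myeloid receptors Clec4n (0.78) and Cd14 (0.77). Timp1 was closest to Spp1 (0.85), Adam12 (0.82) and Ninj1 (0.81), Timp3 to Slc43a3 (0.93), Scn7a (0.86) and Zbtb16 (0.85), and Mmp2 to Gdf10 (0.77), Rspo1 (0.75) and Apbb1ip (0.72).

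Of 10 other metalloproteinases tested, 2 rose and 1 fell in invasive carcinoma against normal (median 0.11). Of all tested genes 23.4% rose and 22.7% fell there, and these shares belong beside each list count below for that comparison. Mmp25, a membrane enzyme of leukocytes, averaged 1.82 ± 0.42 CPM in invasive carcinoma and 0.168 ± 0.204 CPM in normal tissue (SD, n = 6 and 3), a log2 difference of 3.30 ± 0.55 (adjusted p = 5.2e-05), and it was already higher in hyperplasia, by 2.7 ± 0.54 (adjusted p = 0.00136). Mmp1b had no counts in any normal or hyperplasia sample and averaged 0.307 ± 0.334 CPM in invasive carcinoma (adjusted p = 0.0199 against normal). It had 70 counts in all samples together and shares 157 exon bases with Mmp12 on the other strand. The strand setting is not given, so reads of Mmp12 and Mmp1b may not be separated. Mmp11, known as a stromal enzyme, fell by 0.65 on the log2 scale (adjusted p = 0.00391). Against hyperplasia, 2 rose and 3 fell in invasive carcinoma, beside 19.1% and 19.2% of all genes. Mmp1a, Mmp7, Mmp20, Mmp21 and Mmp24 did not pass the expression filter.

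Among 5 other inhibitors, 3 fell and 1 rose in invasive carcinoma against normal (median -0.65). The same split of 3 and 1 was found in carcinoma in situ, beside 18.1% of all genes lower and 19.4% higher. Timp2, which also takes part in proMMP2 activation, averaged 99.2 ± 16.8 CPM in invasive carcinoma and 155 ± 21.0 CPM in normal tissue (-0.65 ± 0.14, adjusted p = 4.4e-04). Timp4 (-1.59 ± 0.35, adjusted p = 6.0e-04) and the membrane inhibitor Reck (-1.18 ± 0.28, adjusted p = 0.00134) fell too. A2m, a protease trap of low level here, rose by 2.52 ± 0.97 (adjusted p = 0.0339) to 0.508 ± 0.412 CPM.

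Of 13 tested activators and regulators, 8 rose and 1 fell in invasive carcinoma against normal (median 0.69). Plau, the urokinase that starts plasmin formation, averaged 77.4 ± 33.4 CPM in invasive carcinoma and 20.4 ± 0.766 CPM in normal tissue (1.92 ± 0.29, adjusted p = 2.2e-05). Lcn2, which binds MMP9, rose by 4.58 ± 0.83 (adjusted p = 1.4e-04), and the cell surface receptor Cd44 by 1.06 ± 0.19 (adjusted p = 8.3e-05). The serine protease Prss22 rose by 3.01 ± 0.47 (adjusted p = 3.2e-05). Of 15 ADAM and ADAMTS genes, which encode sheddases and matrix proteinases, 6 rose and 1 fell, among them Adam8 (1.97 ± 0.19, adjusted p = 1.1e-07) and Adam12 (2.48 ± 0.53, adjusted p = 4.7e-04) upward and Adamts5 (-0.95 ± 0.21, adjusted p = 5.7e-04) downward.

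Transcription factors of the AP-1, NF-kappaB and related families, known regulators of these promoters, rose in 11 of 16 cases in invasive carcinoma against normal and fell in none (median 0.59). Nfkb1 rose by 0.61 ± 0.09 (adjusted p = 1.1e-05), Fosl2 by 0.83 ± 0.14 (adjusted p = 5.9e-05), Junb by 1.10 ± 0.22 (adjusted p = 2.9e-04) and Fosl1 by 1.71 ± 0.45 (adjusted p = 0.00318). In carcinoma in situ against dysplasia, where Mmp3, Mmp10 and Mmp13 rose, Relb had the smallest adjusted p of the 16, at 0.0737 (0.46 ± 0.15).

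Of 19 tested matrix substrates, 6 rose and 2 fell in invasive carcinoma against normal (median -0.20). The anchoring fibril collagen Col7a1 (1.49 ± 0.27, adjusted p = 9.8e-05) and the laminin chain Lama3 (2.0 ± 0.43, adjusted p = 6.5e-04) rose, and the proteoglycan Dcn fell by 1.05 (adjusted p = 2.7e-05). Against dysplasia, carcinoma in situ had 5 higher and 0 lower, beside 2.99% and 2.47% of all genes. Basal keratinocyte markers moved with these epithelial substrates: 8 of 10 rose and 1 fell in invasive carcinoma against normal, with summed levels of 10088 to 25771 CPM in invasive carcinoma and 5228 to 6616 CPM in normal tissue. Of 8 injury keratinocyte markers, 7 rose and none fell in the same comparison. In carcinoma in situ against dysplasia, 1 of 10 basal markers rose and none fell (median 0.30), and no injury marker was called (median -0.04). The part of these cells in the metalloproteinase results was not tested.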

How the data were processed

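Raw counts for each Ensembl gene in 30 samples were deposited by the authors in a single table. The submitters' processing notes name cutadapt 2.4, STAR 2.7.2a and GRCm38. The counting tool, strand setting and annotation release are not given in the sources used here, so reads of overlapping opposite-strand genes may not be separated. Of 55487 identifiers, 55227 (99.53%) matched GENCODE M21.

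Counts were fitted in edgeR 4.0.16 (R 4.3.3) with TMM factors (0.892 to 1.06), the default expression filter, robust dispersion and 1 mean per stage over all 30 samples, after a test on simulated data. Each of 8 comparisons was tested two-sided with Benjamini-Hochberg adjustment over 17638 genes and called at an adjusted p under 0.05. CPM use TMM factors, log2 CPM a prior count of 2, and CPM per kb the merged exon length. Alternatives included DESeq2 1.42.0 and limma 3.58.1; leaving out D01, B01 and C12 together was chosen after seeing the data.

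Members and lists were chosen with earlier results of these data known. The text names all 10 members, up to 4 tested genes with the smallest adjusted p per other list and comparison, the 3 closest patterns per member, and promoters of the members called most often; Ngp and Mpo were named after their values were seen; a few genes that the rule names are not reported here. Intervals and detection floors (3 counts) cover counting error only. Further tools were matplotlib 3.10.9, numpy 2.4.6, pandas 2.3.3 and Python 3.11.15.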

Additional observations from a re-analysis of the deposited data

Results flagged for a closer look

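In 11 of 40 groups of 1 gene in 1 stage, the highest sample was far from the others of its group by Dixon's limit. That limit would be passed in about 1 in 20 groups if the values were Gaussian and the groups independent. CPM need not be Gaussian and the groups share samples, so that rate does not apply to the count of 11. The normal stage, with 3 samples, was not examined for this. Dysplasia sample B01, which also has the highest bone and cartilage score of all samples (2.44), stood apart in Mmp8 at 3.84 CPM with the next sample at 0.25 CPM, in Mmp9 at 14.3 CPM with the next at 3.79 CPM, in Mmp12 at 2.92 CPM with the next at 2.10 CPM, and in Mmp13 at 4.10 CPM with the next at 1.18 CPM. Dysplasia sample B06 stood apart in Mmp10 at 0.829 CPM, with the next at 0.179 CPM.

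Hyperplasia sample A05, the highest of its stage in summed neutrophil markers (1384 CPM), stood apart in Mmp3 at 7.77 CPM with the next at 4.85 CPM, and in Mmp13 at 1.29 CPM with the next at 0.653 CPM. A01 stood apart in Mmp2 at 113 CPM, with the next at 93.5 CPM, and was also the highest in summed fibroblast markers (2290 CPM). A06 stood apart in Mmp8 at 0.486 CPM, with the next at 0.214 CPM. In carcinoma in situ, C07 stood apart in Mmp2 at 104 CPM, with the next at 89.4 CPM. In invasive carcinoma, C05 stood apart in Timp3 at 112 CPM, with the next at 75.9 CPM.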

How the results depend on the processing

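Of 1800 values under alternatives, over 80 pairs of gene and comparison with 34 called, 1705 stayed on the same side of the threshold, 77 lost the call and 18 gained one. No called value changed sign, and 90 of the 1705, all uncalled, did. In 14 of the 34 calls no alternative lost it. The following counts of called genes moved over 1.5 times. For hyperplasia against normal (2, beside 14.3% of all genes) the count was 1 with no expression filter, beside 5.35% of 34108 genes. It was 1 with limma-voom, beside 26.3%, and 4 in a fit of only those groups, beside 19.5%. At an adjusted p under 0.01 it was 0, beside 987 of 17638 genes. It was 1 with the replicate block, beside 12.1%. With single samples left out it was 0 to 2, beside 5.14% to 16.3%. At an adjusted p under 0.01 the count against normal was 1 in dysplasia (3), beside 11.4% of all genes, and 5 in carcinoma in situ (8), beside 22.5%. In carcinoma in situ against dysplasia (5) the count was 3, beside 0.352%. With the muscle score it was 4 for carcinoma in situ (8) and 3 for invasive carcinoma (6) against normal, and 5 in invasive carcinoma against hyperplasia (10), while calls among all genes numbered 2910, 2177 and 1610 in place of 6628, 8126 and 6768. Leaving out single samples gave 5 to 8 in carcinoma in situ against normal, beside 23.5% to 41.5% of all genes. The cause was not tested.

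The number in the sample code was also fitted as a replicate block. It did not pair samples: over 31 same-numbered pairs the correlation ran from -0.564 to 0.512, median 0.049, and 11 exceeded 0.1. Numbers 9, 10, 11 and 12 each belong to a single sample, so the block fits C09, C10, C11 and C12 exactly. These samples then have no part in the stage differences, and an effect of the block cannot be told apart from their loss. The block gave 6 called genes in invasive carcinoma against hyperplasia in place of 10, beside 9.55% of all genes in place of 38.4%. It lost Mmp2 (-0.27, adjusted p = 0.0544), Mmp8 (1.60, 0.426), Mmp14 (0.14, 0.386) and Timp1 (0.93, 0.238), and moved Mmp10 in invasive carcinoma against normal to 4.41.

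Depth limited Mmp8 and Mmp10, with 10 and 4 counts in all normal samples. With 3 normal samples, D01, D02 or D03 decided several calls.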
